A study of Sus scrofa with 12 samples.

Results

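The genes described here are 10 genes of the endoplasmic reticulum (ER) stress response and of the response driven by the transcription factor ATF4, among 31694 genes listed for pig liver. They were taken by symbol from a given list of members of these responses, which was drawn up with earlier results of these data known. They comprise the ER chaperones HSPA5, HSP90B1 and DNAJB9, the ER degradation factor HERPUD1, the transcription factors XBP1, ATF4 and DDIT3, and the ATF4 targets TRIB3, ASNS and PSAT1. Of the 10 genes, 9 had a row under their symbol, 8 were above 0 in every library, and these 8 passed the filter on low values.

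The liver was taken from 3 Jinhua (JH) pigs, a slow-growing and fat Chinese breed that the labels name as the experiment group, and from 3 Landrace (LD) pigs, a fast-growing lean breed named as the control group. All were uncastrated males of 70 days of age, and the labels name no treatment of either breed. One mRNA library was made per pig (JH1 to JH3 and LD1 to LD3), and the 6 small RNA libraries of the series were not used here. Whole liver holds several cell types, so fewer cells of a type and less RNA per cell cannot be told apart.

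The ER folds secreted proteins, and the liver secretes most of the proteins of blood plasma. When unfolded proteins gather, 3 sensors in the ER membrane respond. IRE1 (ERN1) splices the XBP1 mRNA, ATF6 is cut to release a transcription factor, and PERK (EIF2AK3) phosphorylates the translation factor eIF2alpha. The ATF6 and XBP1 branches raise chaperones and degradation factors. Phosphorylated eIF2alpha slows protein synthesis while favouring translation of ATF4, which drives genes for amino acid synthesis, transport and tRNA charging. ATF4 is also reached without ER stress, since GCN2 (EIF2AK4) phosphorylates the same factor when amino acids are short. Both the splicing of XBP1 and the translation of ATF4 act after transcription and are not seen in a total mRNA level.

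The deposited values are RPKM, reads scaled to gene length and to the reads of the library. Levels of different genes can be compared only as far as the gene models and the counting hold. The total number of reads behind them, recovered from the steps between low values, was between 5744908 and 7914515 per library. The ribosomal RNA gene RN18S was highest in JH3 with 62257 RPKM and lowest in JH2 with 1570 RPKM. Hepatocyte markers had the highest sum of the cell type marker lists in every library. Their sum over 6 markers was 36060 to 43560 RPKM in JH and 49070 to 63760 RPKM in LD, most of it from ALB. One of the 6, APOB, was listed at 0. Pancreatic acinar markers reached at most 0.176 RPKM. Between the breeds, 310 of 12993 tested genes were called different in limma (2.39%), for which an adjusted p under 0.05 and a JH to LD difference of more than 1 on the log2 scale were needed. Of these, 133 were higher (1.02%) and 177 lower (1.36%) in JH. Across all tested genes the log2 fold change (JH over LD, computed from RPKM + 0.1) had a median of 0.04.

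Of the 8 genes measured, ASNS was the one that passed this threshold, and it was 3.91-fold higher in JH on the scale of RPKM + 0.1. The other 7 did not pass it, with log2 fold changes from -0.19 for XBP1 to 1.22 for TRIB3. The fold change on the log2 scale was above 0 in 6 of the 8 genes (52.9% of all tested genes) and below 0 in 2. The 3 JH values lay above the 3 LD values in 2 of the 8 genes, ASNS and TRIB3, an order found in 10.8% of all tested genes. The opposite order was found in 0 of the 8, against 12.5% of all tested genes. JH and LD values overlapped in the other 6, and over all tested genes 23.4% did not overlap in one direction or the other.

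**Figure D1:**
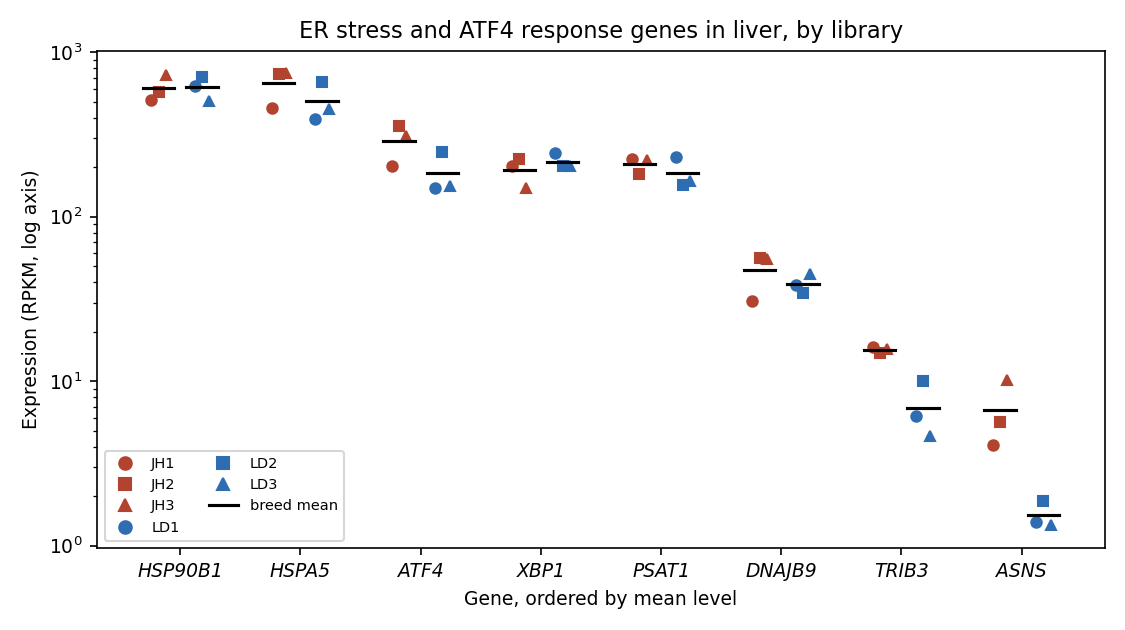
Expression of the 8 measured genes in RPKM on a log axis, with 1 point per library (JH red, LD blue) and a bar at each breed mean. The points of JH and LD mingle from HSP90B1 to DNAJB9, and they separate for TRIB3 and ASNS at the low end of the range.

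The levels spanned from 608 RPKM for HSP90B1 to 4.09 RPKM for ASNS as means over 6 libraries. HSP90B1, the HSP90 family chaperone of the ER, exceeded HSPA5 (574 RPKM) in 4 of 6 libraries, so these neighbours in the order were not separated. ATF4 (236 RPKM), XBP1 (204 RPKM) and PSAT1 (196 RPKM) followed. ATF4 exceeded XBP1, and XBP1 exceeded PSAT1, in 4 of 6 libraries, so these neighbours were not separated either. DNAJB9 (43.4 RPKM), TRIB3 (11.2 RPKM) and ASNS each lay below the gene before them in all 6 libraries. HSP90B1 stood at the 99.0th percentile of mean level among tested genes, and ASNS at the 45.3th.

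HSPA5 encodes BiP, the HSP70 of the ER that binds unfolded chains and holds the stress sensors inactive. Its level was 456 RPKM in JH1, 741 in JH2 and 744 in JH3, and 391 RPKM in LD1, 661 in LD2 and 454 in LD3. The breeds overlapped, since LD2 exceeded JH1. The means were 647 ± 165 RPKM in JH pigs and 502 ± 141 RPKM in LD pigs (SD, n = 3 each), with a log2 difference between JH and LD of 0.37 (95% interval -0.32 to 1.05, adjusted p = 0.574 from limma). Between 5731 and 12593 reads stood behind each value, so counting error was small beside the spread between pigs.

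HSP90B1, also called GRP94, helps fold a restricted set of secreted and membrane proteins. It was at 515 RPKM in JH1, 577 in JH2 and 727 in JH3, and at 624 RPKM in LD1, 705 in LD2 and 503 in LD3. The highest value was that of a JH library and the lowest that of an LD library, but the means were nearly equal, 606 ± 109 RPKM in JH pigs and 611 ± 102 RPKM in LD pigs (SD, n = 3 each). This gave a log2 fold change of -0.01 (95% interval -0.59 to 0.56, adjusted p = 0.987 from limma).

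DNAJB9, or ERdj4, is a J-domain partner of BiP and a classical target of spliced XBP1. Its level was 30.9 RPKM in JH1, 56.4 in JH2 and 55.5 in JH3, and 38.4 RPKM in LD1, 34.2 in LD2 and 44.9 in LD3. JH1 held the lowest value of all 6 libraries and the other JH libraries the highest ones. On the log2 scale JH differed from LD by 0.24 (95% interval -0.42 to 0.90, adjusted p = 0.72 from limma). JH1 was the lowest JH library in each of the 3 chaperones.

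XBP1 is the transcription factor made active by the splicing step of IRE1 and is abundant in secretory cells. It was at 202 RPKM in JH1, 223 in JH2 and 150 in JH3, and at 244 RPKM in LD1, 203 in LD2 and 202 in LD3. The lowest value came from JH3, the library with the most RN18S, and JH2 exceeded both LD2 and LD3. The difference of JH from LD was -0.19 on the log2 scale (95% interval -0.75 to 0.37, adjusted p = 0.739 from limma). The files give 1 value per gene, so spliced and unspliced XBP1 are summed.

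HERPUD1 tethers the degradation machinery of the ER membrane, and DDIT3 (CHOP) is the factor tied to cell death under lasting stress. HERPUD1 had no row under its symbol. Its RefSeq gene ID in assembly Sscrofa11.1 matched the row LOC100622579, which was listed at 0 in all 6 libraries, and DDIT3 was listed at 0 in all 6 libraries as well. A value of 0 can be a failed estimate in these files, since B2M and AAMP, 2 genes that cells in general use and that were picked after their values were seen, were also listed at 0 in every library. No level or comparison of HERPUD1 or DDIT3 is therefore given. In all, 12080 genes were listed at 0 in all 6 libraries.

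ATF4 was at 203 RPKM in JH1, 357 in JH2 and 307 in JH3, and at 149 RPKM in LD1, 247 in LD2 and 153 in LD3. The breeds overlapped through a single pair of libraries, LD2 above JH1. The means were 289 ± 78.6 RPKM in JH pigs and 183 ± 55.7 RPKM in LD pigs (SD, n = 3 each), with a log2 fold change of 0.66 (95% interval -0.04 to 1.36, adjusted p = 0.306 from limma). The interval thus holds no difference as well as a difference of up to 1.36 on the log2 scale, and the test was not passed.

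TRIB3 encodes a pseudokinase that is switched on by ATF4 and DDIT3 and restrains them in turn. It was at 16.1 RPKM in JH1, 14.7 in JH2 and 15.6 in JH3, and at 6.10 RPKM in LD1, 10.004 in LD2 and 4.62 in LD3. The JH values were close together and all above those of LD, whose highest library was again LD2. The mean was 15.5 ± 0.689 RPKM in JH pigs and 6.91 ± 2.78 RPKM in LD pigs (SD, n = 3 each), from 114 to 376 reads per library. A log2 fold change of 1.22 (standard error 0.30) gave an adjusted p = 0.0779 from limma, which missed the threshold. The two-sided exact permutation test gave p = 0.1, below which no design with 3 pigs per breed can go. TRIB3 passed in 2 of 14 alternatives. These were scaling all libraries to a common median (adjusted p = 0.0461 from limma) and limma's voom on the recovered reads (adjusted p = 0.0425). It missed the threshold in the other 12. Among these were the 6 fits without 1 library, with adjusted p between 0.0535 and 0.212 from limma.

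ASNS, asparagine synthetase, makes asparagine from aspartate and glutamine and is a standard readout of ATF4. It was at 4.11 RPKM in JH1, 5.67 in JH2 and 10.18 in JH3, and at 1.39 RPKM in LD1, 1.86 in LD2 and 1.33 in LD3. The lowest JH library held more than the highest LD library, and JH3 stood above the other JH libraries. The mean was 6.66 ± 3.15 RPKM in JH pigs and 1.53 ± 0.289 RPKM in LD pigs (SD, n = 3 each). ASNS was the lowest of the measured genes, and its values rest on 74, 138 and 247 reads in JH1, JH2 and JH3 and on 31, 46 and 33 reads in LD1, LD2 and LD3. JH exceeded LD by 1.97 on the log2 scale (standard error 0.35, 95% interval 1.17 to 2.77, adjusted p = 0.0301 from limma, exact permutation p = 0.1).

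The call of ASNS depended on single libraries. It was kept without JH1 (adjusted p = 0.0246 from limma) and without JH3 (adjusted p = 0.0417). It was lost without JH2 (adjusted p = 0.0656), LD1 (adjusted p = 0.113), LD2 (adjusted p = 0.0672) and LD3 (adjusted p = 0.0796). The log2 fold change stayed between 1.61 and 2.26 in these 6 fits. The sums of stellate cell markers were 41.9 to 66.4 RPKM in JH and 138 to 270 RPKM in LD, those of endothelial markers 19.0 to 28.5 RPKM in JH and 35.7 to 43.2 RPKM in LD, and those of erythroid markers 90.2 to 122 RPKM in JH and 213 to 393 RPKM in LD. Bile duct markers summed to 9.09 to 19.4 RPKM in JH and 19.97 to 51.7 RPKM in LD, with KRT7 listed at 0. Neither these sums nor the hepatocyte sum overlapped between the breeds. Most of the hepatocyte sum was ALB, with 27533 to 33599 RPKM in JH and 37742 to 53893 RPKM in LD. Of the 5 tested hepatocyte markers, 0 were called, and of the 3 tested endothelial markers, 0 were called. Called lower in JH were 2 of 4 tested stellate cell markers, 1 of 3 bile duct markers and 1 of 2 erythroid markers (1.36% of all tested genes). The part of these cell types in the difference of ASNS was not tested.

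PSAT1 catalyses the middle step of serine synthesis from glycolysis and is a target of ATF4 too. It was at 225 RPKM in JH1, 181 in JH2 and 220 in JH3, and at 231 RPKM in LD1, 156 in LD2 and 164 in LD3. LD1 held the highest value of all 6, and the log2 fold change was 0.20 (95% interval -0.37 to 0.77, adjusted p = 0.725 from limma). PSAT1 was also much more abundant than ASNS in every library of both breeds.

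Ratios between genes within a library do not depend on the library total. On the log2 scale, ASNS relative to HSPA5 was -6.79 in JH1, -7.03 in JH2 and -6.19 in JH3, and -8.13 in LD1, -8.47 in LD2 and -8.42 in LD3. The ratio was thus higher in every JH library, by 1.67 on average. TRIB3 relative to HSPA5 was higher by 0.87 and ATF4 relative to HSPA5 by 0.30, and in both the 3 JH ratios lay above the 3 LD ratios. For ATF4 this order appeared in the ratio although the RPKM values themselves overlapped, and the ratios ranged from -1.28 to -1.05 in JH and from -1.57 to -1.39 in LD. These ratios were chosen after the values were seen, and each of the 4 had p = 0.1 in the two-sided exact permutation test, and an adjusted p = 0.1.

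The wider pathway was described by 84 further genes in 7 lists. Of these, 75 had a row, 7 were listed at 0, 4 were below the filter and 64 were tested. The test called 2 of the 64 higher in JH, FGF21 and PHGDH, and 0 lower, against 1.02% and 1.36% of all tested genes, and 12 of the 64 were at an unadjusted p under 0.05 (17.9% of all tested genes). All 3 JH values were above all 3 LD values in 13 of the 64 (10.8% of all tested genes) and below them in 5 (12.5%). The median log2 fold change of the 64 was 0.07.

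**Figure D2:**
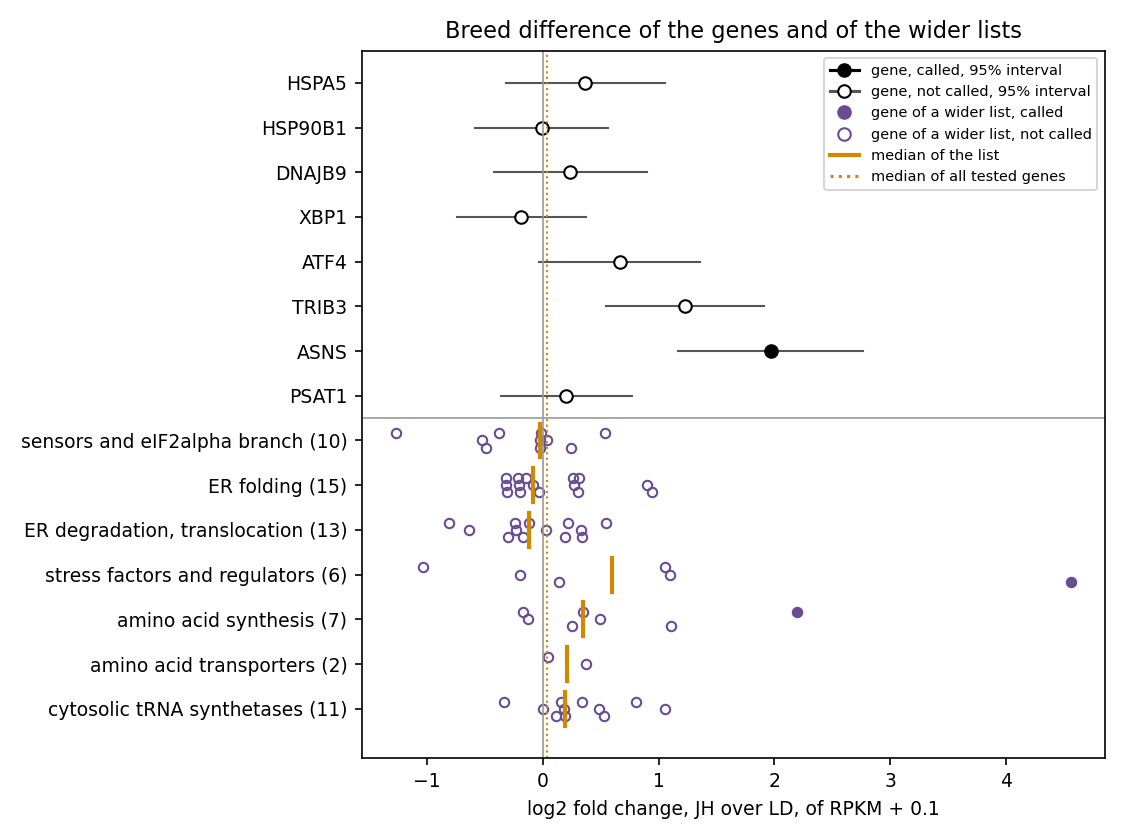
Breed differences as log2 fold changes, JH over LD, for the 8 measured genes, with 95% intervals, and for the genes of the 7 wider lists (number tested in parentheses), with the list median in orange. Filled points passed the threshold: ASNS at 1.97, PHGDH at 2.199 and FGF21 at 4.56, while the ER folding list centres on -0.08.

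Among the sensors and the eIF2alpha branch, 0 of 10 tested genes were called, and the median log2 fold change was -0.03. The ER sensor EIF2AK3 (PERK), named after its values were seen, had means of 2.45 ± 0.191 RPKM in JH pigs and 2.5 ± 0.130 RPKM in LD pigs (SD, n = 3 each). EIF2AK4 (GCN2), the kinase that reads uncharged tRNA, was identified by its RefSeq gene ID. It was at 1.65 RPKM in JH1, 1.47 in JH2 and 2.21 in JH3, and at 3.47 RPKM in LD1, 5.29 in LD2 and 4.56 in LD3, each JH value below each LD value. These values stand for between 5 and 22 reads on a gene model of 527 bases, and the difference of -1.27 (standard error 0.29, log2 scale) missed the threshold (adjusted p = 0.0575 from limma). Of 14 alternatives, EIF2AK4 passed in 1, the fit without JH3, with an adjusted p = 0.0484 from limma. It missed the threshold in the other 13, with an adjusted p of up to 0.19.

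In the ER folding list, 0 of 15 tested genes were called, 6 had a log2 fold change above 0 and 9 below 0, and the median was -0.08. CANX, the lectin chaperone calnexin, averaged 99.7 ± 2.62 RPKM in JH pigs and 125 ± 14.0 RPKM in LD pigs (SD, n = 3 each), with the JH values all below those of LD and a difference of -0.32 on the log2 scale (limma, adjusted p = 0.49). SDF2L1 and CRELD2, 2 small ER stress proteins picked after their values were seen, had the largest log2 differences in the other direction among the 15. SDF2L1 averaged 168 ± 56.9 RPKM in JH pigs and 85.9 ± 19.2 RPKM in LD pigs (SD, n = 3 each), with a log2 difference of 0.94 (limma, adjusted p = 0.162). For CRELD2 the log2 fold change was 0.90 (adjusted p = 0.205 from limma), and JH1 with 52.4 RPKM barely exceeded LD2 with 52.1 RPKM.

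The folding genes differed between pigs of a breed. JH2 was the highest JH library in 11 of the 15 genes (39.2% of all tested genes) and JH1 the lowest in 10 (22.0% of all tested genes). Among LD libraries, LD2 was the highest in 8 of the 15 (46.3% of all tested genes) and LD3 the lowest in 11 (56.5% of all tested genes). RN18S was lowest within each breed in JH2 (1570 RPKM) and LD2 (2108 RPKM) and highest in JH3 (62257 RPKM) and LD3 (20160 RPKM). JH2 was also the library with the highest sums of T cell markers (39.5 RPKM, against 8.60 to 14.7 RPKM in the other 5), of plasma and B cell markers (90.0 RPKM, against 21.8 to 40.8 RPKM) and of macrophage markers (769 RPKM, against 301 to 504 RPKM, with CD163 listed at 0). The part of RN18S and of these cells in the ranks of the folding genes was not tested.

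**Figure D3:**
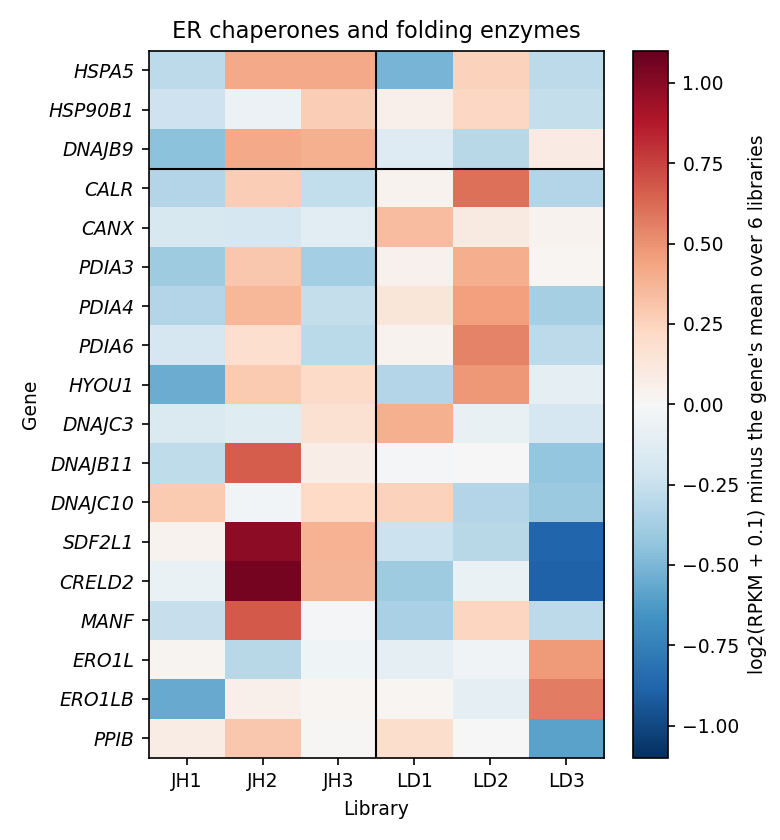
Expression of the 3 ER chaperones and of 15 further folding genes in the 6 libraries, as log2(RPKM + 0.1) minus the mean of each gene over the libraries (red above, blue below). The JH2 column is mostly red, the JH1 and LD3 columns are mostly blue and the LD2 column is mixed, so libraries of the same breed differ in colour.

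Of the ER-associated degradation and translocation genes, 0 of 13 were called, with a median log2 fold change of -0.13. SEC61A1, the pore subunit of the translocon, averaged 77.1 ± 16.4 RPKM in JH pigs and 120 ± 21.9 RPKM in LD pigs (SD, n = 3 each), all JH values below those of LD, with a difference of -0.64 on the log2 scale (limma, adjusted p = 0.251). EDEM1, which hands misfolded glycoproteins to degradation, was picked after its values were seen because it was called lower in JH without JH3. With all libraries its log2 fold change was -0.81 (adjusted p = 0.303 from limma), and JH3 with 8.59 RPKM lay among the LD values while JH1 and JH2 were at 3.06 and 3.53 RPKM.

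The stress transcription factors and regulators had 1 of 6 tested genes called, higher in JH (1.02% of all tested genes), and CEBPB was listed at 0. FGF21, a hormone released by the liver under nutrient stress and transcribed through ATF4 as well as PPARA, was at 23.1 RPKM in JH1, 10.3 in JH2 and 5.93 in JH3, and at 0.475 RPKM in LD1, 0.940 in LD2 and 0.085 in LD3. The LD values stand for 5, 11 and 1 reads, and JH exceeded LD by 4.56 on the log2 scale (standard error 0.66, adjusted p = 0.0117 from limma). Without LD1 the call was lost, with an adjusted p = 0.0539 and a log2 fold change of 4.69. The size was smaller, and still called, without LD3 (3.88, adjusted p = 0.0171 from limma) and with a pseudocount of 1 (3.08, adjusted p = 0.00616 from limma). The JH pigs ranked differently for FGF21 and for ASNS, since JH1 was the highest in FGF21 and the lowest in ASNS.

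CHAC1, an enzyme that breaks down glutathione and a target of ATF4, was below the filter and is named after its values were seen. It was at 0.411 RPKM in JH1, 3.81 in JH2 and 11.99 in JH3, from 4, 50 and 157 reads, and at 0.083 RPKM in LD1, 0 in LD2 and 0.075 in LD3, from 1, 0 and 1 reads. Each JH value was above each LD value, and JH3 was the highest as for ASNS. CHAC1 was left out of the main test, and in the alternative with no filter on low values it was not called. The amino acid transporters SLC38A2 and SLC6A9, also below the filter, had the opposite order, each JH value below each LD value. SLC38A2 averaged 0.183 RPKM in JH and 0.461 RPKM in LD, from 5 to 27 reads per library. SLC6A9, identified by its RefSeq gene ID, averaged 0.285 RPKM in JH and 0.705 RPKM in LD, from 1 to 4 reads. In SLC7A1, the last of the 4 wider genes below the filter, the breeds overlapped.

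CEBPG, a partner of ATF4 on DNA, averaged 20.2 ± 3.50 RPKM in JH pigs and 9.36 ± 1.11 RPKM in LD pigs (SD, n = 3 each), with a log2 fold change of 1.09 (standard error 0.24). All JH values were above those of LD, and the test was narrowly missed with all libraries and no block (adjusted p = 0.0521 from limma). CEBPG passed in 5 of 14 alternatives. These were the replicate number as a block (adjusted p = 0.0472 from limma), median scaling (adjusted p = 0.0351), totals without RN18S (adjusted p = 0.0352), a pseudocount of 1 (adjusted p = 0.0454) and voom (adjusted p = 0.029). It did not pass in the other 9. Among these were the 6 fits without 1 library, with adjusted p between 0.0592 and 0.166 from limma. ATF3, identified by its RefSeq gene ID, averaged 6.50 ± 3.31 RPKM in JH pigs and 2.98 ± 1.09 RPKM in LD pigs (SD, n = 3 each), with JH1 far above the other JH libraries and a log2 difference of 1.06 (limma, adjusted p = 0.207). VLDLR, a lipoprotein receptor raised by ATF4 in the liver, had the opposite order, with 2.29 ± 0.842 RPKM in JH pigs and 4.59 ± 0.232 RPKM in LD pigs (SD, n = 3 each) and a difference of -1.04 on the log2 scale (limma, adjusted p = 0.135).

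Among the amino acid synthesis genes 1 of 7 tested was called higher (1.02% of all tested genes), PHGDH, and SHMT2 and PYCR1 were listed at 0. PHGDH commits glycolytic carbon to serine, the step before PSAT1. It was at 180 RPKM in JH1, 58.2 in JH2 and 79.7 in JH3, and at 21.3 RPKM in LD1, 33.0 in LD2 and 12.1 in LD3, each JH value above each LD value. JH exceeded LD by 2.199 on the log2 scale (standard error 0.47, adjusted p = 0.048 from limma). The call was lost in 9 of 14 alternatives. It was lost in a fit blocked on replicate number (adjusted p = 0.0613 from limma). It was also lost with a pseudocount of 0.01 (adjusted p = 0.0607) and with no filter on low values (adjusted p = 0.076). Each of the 6 fits without 1 library lost it too, with adjusted p between 0.0532 and 0.148 and log2 fold changes between 1.73 and 2.545.

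PHGDH relative to PSAT1 within a library was higher in JH by 2.005 on the log2 scale (p = 0.1 by the two-sided exact permutation test), and the ratio was chosen after the values were seen. PSPH, the last step of the pathway, also picked after its values were seen, averaged 8.74 ± 5.73 RPKM in JH pigs and 5.29 ± 1.51 RPKM in LD pigs (SD, n = 3 each), with a 95% interval of the log2 fold change of -0.63 to 1.62 and an adjusted p = 0.648 from limma. ALDH1L2, the mitochondrial folate enzyme, averaged 3.50 ± 1.59 RPKM in JH pigs and 1.51 ± 0.422 RPKM in LD pigs (SD, n = 3 each), with a log2 difference of 1.11 (limma, adjusted p = 0.164) and all JH values above those of LD.

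**Figure D4:**
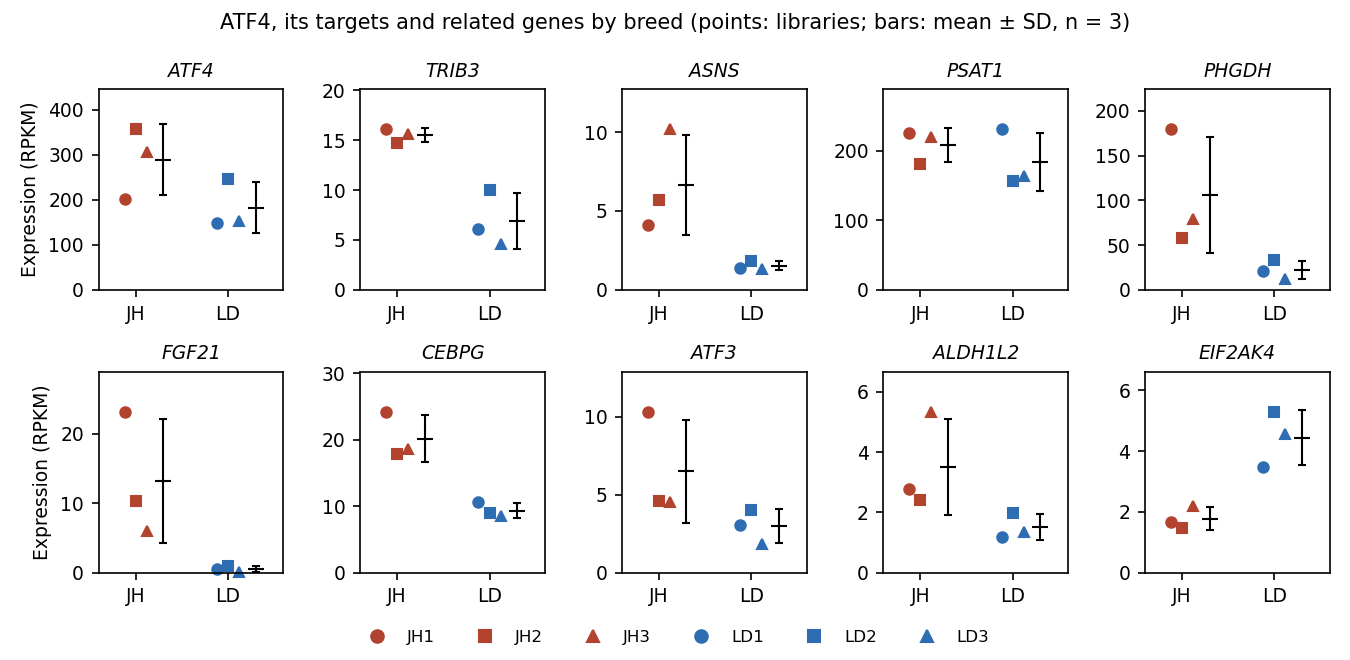
Expression in RPKM of ATF4, its 3 measured targets and 6 related genes, with a point per library and the mean ± SD (n = 3) of each breed beside it. JH lies above LD without overlap in TRIB3, ASNS, PHGDH, FGF21, CEBPG, ATF3 and ALDH1L2 and below it in EIF2AK4, and the breeds overlap in ATF4 and PSAT1. The 6 related genes were named for a call or for a large change without overlap, so their separation follows from that choice. Of the 64 tested genes of the wider lists, 46 overlapped between the breeds. VLDLR, also raised by ATF4, had all JH values below those of LD (log2 fold change -1.04) and is not shown.

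Of the cytosolic tRNA synthetases, which load amino acids onto tRNA, 0 of 11 tested genes were called, 10 had a log2 fold change above 0 (52.9% of all tested genes) and 1 below 0, and the median was 0.19, against 0.04 for all tested genes. In 4 of the 11 all JH values were above those of LD, an order found in 10.8% of all tested genes. GARS, picked after its values were seen as the one with the largest log2 difference of the 11, averaged 33.2 ± 7.96 RPKM in JH pigs and 15.6 ± 2.02 RPKM in LD pigs (SD, n = 3 each), with a difference of 1.06 on the log2 scale (limma, adjusted p = 0.0819). LARS had the opposite order, with 11.3 ± 2.03 RPKM in JH pigs and 14.2 ± 0.825 RPKM in LD pigs (SD, n = 3 each) and a log2 difference of -0.34 (limma, adjusted p = 0.496). Among amino acid transporters 2 of 7 could be tested and 0 were called.

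By the root mean square difference of centred log2 profiles over the 6 libraries, the genes most like HSPA5 among all tested genes were PODXL2 (0.083), GADD45G (0.097) and LOC100512176 (0.109). Those most like ASNS were ATP9A (0.311), RGS14 (0.335) and LOC102160504 (0.352). Their log2 fold changes were 1.77, 1.73 and 1.75. These follow from the choice of genes with a like profile and are no further result. The differences were smaller for HSPA5 than for ASNS. ASNS varied more between the libraries and the profiles were not scaled, so closeness of match cannot be compared between them. With 6 libraries such likeness is a description of these samples.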

How the data were processed

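Liver mRNA of 3 JH and 3 LD pigs was analysed, grouped by the sample titles. The authors aligned 50 bp reads to Sus scrofa 10.2 with Tophat (TopHat2 2.0.13 in the submitters' processing notes), counted them with gfold and deposited RPKM, 1 value per gene and library. How the counting treated reads shared by related or overlapping genes is not given in the sources used here. RN18S stayed in the totals.

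Breeds were compared with limma 3.58.1 (R 4.3.3), using moderated statistics whose prior variance follows the level. Values were log2(RPKM + 0.1) of genes reaching 0.5 RPKM in at least 3 libraries. This scale understates changes of low genes. Calls needed a Benjamini-Hochberg adjusted p below 0.05 over all tested genes and a log2 fold change beyond 1 in either direction, the limits of the study, whose tool needs counts. Replicates are separate pigs, with 3 per breed. Whole reads were recovered for 17126 of 19614 genes above 0 (87.3%) by searching for the library total and gene length that make them whole, which was tested on simulated data, as was the limma fit. Reads give counting error only.

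The members and lists were chosen with earlier results of these data known. Wider genes are named if called, or if among the 5 largest changes in each direction without overlap between breeds. Others are marked as picked after their values were seen. Rows missing under a symbol were sought by RefSeq gene ID (Sscrofa11.1). The files use another build, so no coordinates are given. Sequences were not analysed here. Same-numbered JH and LD libraries deviated together with r of -0.02, 0.05 and 0.18, so the block is an alternative only.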

Additional observations from a re-analysis of the deposited data

How the results depend on the processing

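Over 14 alternatives for the 8 measured genes and the 10 wider genes named by the rule, HSP90B1 alone changed direction, whose log2 fold change near 0 became 0.021 without RN18S and ranged from -0.15 to 0.10 with 1 library left out. With a pseudocount of 0.01, 199 DEGs were called (83 higher and 116 lower in JH), with 1 gene of the wider list higher. With no filter on low values 200 DEGs were called (76 higher), with 0 of the 8 genes and 1 of the wider list. Median scaling and voom on recovered reads each called 2 of the 8 genes, ASNS and TRIB3. With 1 library left out, where a breed is left with 2 pigs, DEGs ranged from 79 to 406 (41 to 176 higher and 38 to 230 lower), with 164 without JH1, 150 without JH2, 406 without JH3, 79 without LD1, 114 without LD2 and 149 without LD3. In these fits 0 to 1 of the 8 genes, 0 to 1 of the wider list higher and 0 to 2 of the wider list lower were called. The cause of these changes was not tested. With the replicate block 253 DEGs were called (114 higher and 139 lower), with ASNS among them at an adjusted p = 0.0472 from limma. The block ended the call of PHGDH, added that of CEBPG and changed no other call of the named genes. The numbers do not pair the pigs in the sources used here, and 2 of the 6 ways to pair them gave a mean r of deviations at least as high as 0.07. Low read numbers limit ASNS, EIF2AK4 and FGF21 in LD.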
